A study of Homo sapiens with 4 samples.

Results

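Genes that make, desaturate, lengthen and carry fatty acids were followed through a CRISPR interference experiment in the primed human embryonic stem cell line H9. They were taken by name from the deposited gene table: SCD, FASN, ACLY, ACACA, FADS1, FADS2, ELOVL5, ELOVL6, ACSS2 and FABP7. All 10 were found among 16174 listed genes, and 8 of the 10 averaged 1 TPM or more. The names were put together with the TPM of these same libraries known, compared between days within each guide arm and between guides within each day. Both comparisons are therefore descriptions for the 10 genes: the test across all genes is given only by its counts of calls, and nothing is read from it for them. All cells carried a doxycycline-inducible dCas9-BFP-KRAB, a Cas9 without cutting activity that brings the KRAB repressor to the guides' target. The construct was brought in with a transposase and carriers were selected with puromycin for 6 days; no cloning step is named. One arm also carried 4 pooled guides against the long non-coding RNA gene SNHG26, and the other carried non-targeting control guides. Each arm gave 1 library after 2 days and 1 after 3 days of doxycycline at 1 µg/mL, so there were 4 libraries and every guide arm and every day had 2. The labels do not say whether the libraries came from separate cultures, so any spread between them may be partly technical.

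Cells build fatty acids in the cytosol from acetyl-CoA. ACLY makes acetyl-CoA from citrate exported by mitochondria, and ACSS2 makes it from acetate. ACACA carboxylates it to malonyl-CoA, and FASN joins these units into the saturated fatty acid palmitate. ELOVL6 lengthens palmitate, SCD places the first double bond, and FADS2, ELOVL5 and FADS1 desaturate and lengthen polyunsaturated fatty acids taken from the diet or the medium. FABP7 is a small cytosolic protein that carries long-chain fatty acids and is best known from radial glia of the developing brain. Many genes of this pathway are targets of the SREBP transcription factors, which respond to the lipid content of cell membranes.

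TPM scales reads per unit of length so that every library has an equal total. The length listed here is the genomic span from gene start to gene end, introns included. It gave whole reads in all 4 libraries for 2853 of 13840 genes with any value, SCD and FABP7 among them. For the other genes the length used is less certain. Levels of different genes are read per base of span, which sets long genes low. With every read placed on the full span, the 4 libraries held at most 947338 to 1220265 reads. SNHG26 itself was listed at 0 and 0.933 TPM with the SNHG26 guides and at 2.98 and 4.03 TPM with the control guides, on days 2 and 3 in that order. Markers of primed stem cells were present in each library: 11 of 12 were listed, with POU5F1 at 1050 to 1212 TPM and a sum over the list of 1733 to 1956 TPM. Of the markers of other lineages, 4 of 11 for neuroectoderm were listed, with a sum of 17.2 to 24.5 TPM that was nearly all NES. For mesendoderm 4 of 10 were listed, with a sum of 0 to 3.84 TPM, and for amnion and trophectoderm 3 of 9, with a sum of 2.38 to 6.00 TPM. For fibroblasts 3 of 6 were listed, with a sum of 65.1 to 96.3 TPM, of which THY1, which stem cells also carry, made up 54.4 to 84.4 TPM.

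SCD, ACLY and FABP7 shared 1 order over the libraries. The 250 bases before their starts in RefSeq (GRCh38.p14) were read. SREBPs bind DNA beside NF-Y and Sp1, and CCAAT is the box of NF-Y. The stretches that hold these boxes are shown 5′ to 3′ on the strand of the gene, with CCAAT or its reverse complement ATTGG in capitals.
SCD, chr10:100346984-100347071, plus strand: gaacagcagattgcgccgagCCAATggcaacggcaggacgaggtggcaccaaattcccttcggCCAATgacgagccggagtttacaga
ACLY, chr17:41919023-41919107, minus strand: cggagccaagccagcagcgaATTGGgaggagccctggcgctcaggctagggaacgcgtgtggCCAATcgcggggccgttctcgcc
FABP7, chr6:122779485-122779587, plus strand: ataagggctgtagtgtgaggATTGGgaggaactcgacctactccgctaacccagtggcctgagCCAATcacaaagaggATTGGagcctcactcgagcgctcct
SCD has 2 such boxes, the first base of each 229 and 186 bases before the start, and FABP7 has 3, at 211, 168 and 153 bases. ACLY has 2, at 65 and 23 bases before the upstream one of its 2 RefSeq starts.

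Promoters were matched for 9 of the 10 genes, with 14 starts in all. CCAAT on either strand was present in at least 1 window of 6 of the 9 genes (SCD, ACLY, FABP7, ACACA, ACSS2 and ELOVL5) and in 32.01% of all 35116 windows of this length. Of these 6 genes ACACA, ACSS2 and ELOVL5 did not share the order of SCD over the libraries. The Sp1 box GGGCGG was present in 7 of the 9 genes and in 42.6% of windows. The E-box CACGTG was present in ELOVL5 only among the 9, and in 6.34% of windows. The sterol response element core TCACNCCAC was in none of the 14 windows and in 0.883% of all windows. All motifs were searched on both strands, none is contained in another, genes with several starts had more than 1 chance of a match, and a match of letters does not show a bound site.

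The highest of the 10 genes per base of span was SCD, the desaturase that turns saturated into monounsaturated fatty acids. The table lists it at chromosome 10, 100347233 to 100364826, plus strand (GRCh38). With the SNHG26 guides it stood at 86.6 TPM on day 2 and 40.1 TPM on day 3, and with the control guides at 70.8 TPM and 26.0 TPM. Both day 3 libraries were below both day 2 libraries, and on each day the library with the SNHG26 guides was the higher one. In bulk RNA, fewer cells that express a gene and less of its RNA per cell cannot be told apart. The day means were 78.7 ± 11.2 (SD, n = 2) and 33.0 ± 10.00 TPM (SD, n = 2). Each is over 1 library of each guide arm, so the SD is the spread between the arms and not between replicates. Its values came out as whole reads on the listed span of 17594 bases: 209 and 108 reads with the SNHG26 guides and 155 and 68 with the control guides. Day 3 was 0.463 of day 2 with the SNHG26 guides (95% exact binomial interval 0.364 to 0.587) and 0.367 with the control guides (0.272 to 0.491). These intervals cover counting error only, since PCR reads are not independent molecules and the labels name no molecular identifiers.

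FABP7, the fatty acid carrier, was almost as high per base of span. The table lists it at chromosome 6, 122779716 to 122784074, plus strand. Its values were 83.6 TPM on day 2 and 34.5 TPM on day 3 with the SNHG26 guides, and 68.2 TPM and 18.5 TPM with the control guides. The order of the libraries was that of SCD, with both day 3 libraries below both day 2 libraries. The day means, again over 1 library of each guide arm, were 75.9 ± 10.9 (SD, n = 2) and 26.5 ± 11.3 TPM (SD, n = 2). FABP7 also gave whole reads on its span, although only 50, 23, 37 and 12 of them in the libraries as just listed. Day 3 was 0.412 of day 2 with the SNHG26 guides (interval 0.240 to 0.688) and 0.271 with the control guides (0.129 to 0.532). Each interval overlapped that of the other arm. SCD and FABP7 were named with these values known, so nothing is read from where their intervals lie. Of 11 neuroectoderm markers 2 had any value: NES at 17.1 to 24.5 TPM, lowest in the control day 3 library, and DCX at 0.0901 TPM or less. OTX1 and DLK1 were listed at 0, and the part of such cells in the level of FABP7 was not tested.

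**Figure D1:**
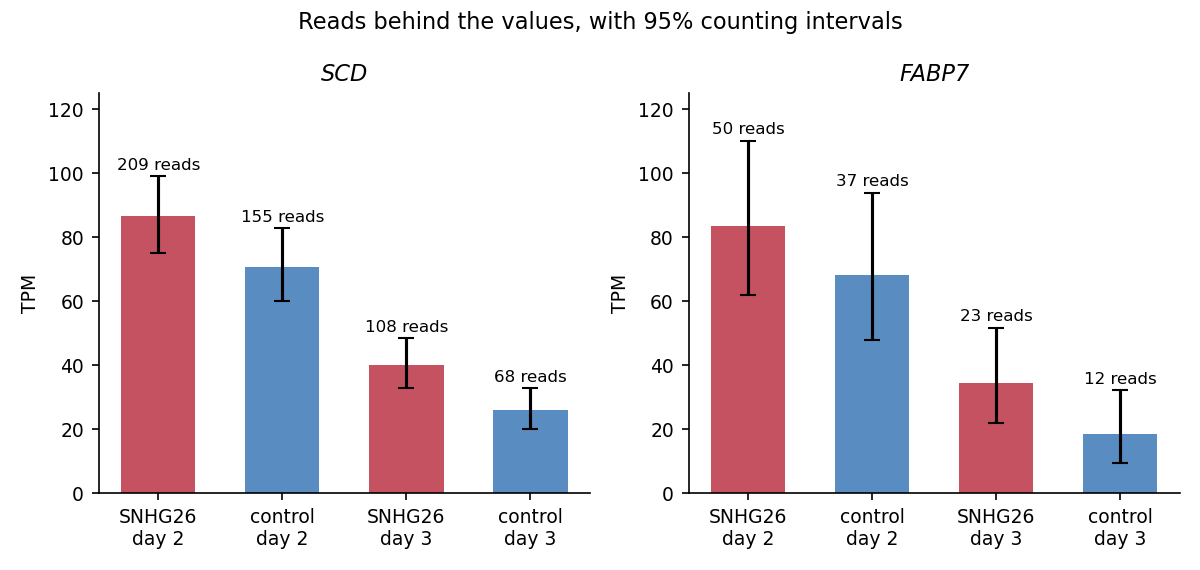
TPM of SCD and FABP7 in each library (bars, axis from 0) with exact 95% Poisson intervals of the read number (error bars, counting error only) and the reads behind each bar. For SCD the day 3 bars (26.0 and 40.1 TPM) lie below the day 2 bars (70.8 and 86.6 TPM). For FABP7 the intervals of the SNHG26 day 3 library and the control day 2 library overlap. Both genes were named with these values known, so the intervals are no test of the days.

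Of the enzymes that supply acetyl-CoA, ACLY had the higher level. It is listed on the minus strand of chromosome 17 from 41866917 to 41930542. ACLY stood at 21.6 TPM on day 2 and 9.55 TPM on day 3 with the SNHG26 guides, and at 16.8 TPM and 5.30 TPM with the control guides. Day 3 was 0.443 and 0.316 of day 2, and again the libraries ordered as for SCD. The values did not come out as whole reads, and ACLY has 10 transcripts of different span in GENCODE release 29. They correspond to at most 188, 93.0, 133 and 50.2 reads on the full span and to 107, 53.1, 75.7 and 28.7 reads on the median transcript span. ACSS2 (chromosome 20, plus strand, 34872146 to 34927962) was near the detection limit. It was listed at 0.568 and 0.382 TPM with the SNHG26 guides and at 1.64 and 0 TPM with the control guides, on days 2 and 3. This is at most 11.4 reads in any library. The 0 of the control day 3 library allows up to 0.361 TPM if 3 reads lay on the full span and up to 0.546 TPM on the median transcript span, so it cannot be told apart from the 0.382 TPM of the other arm.

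ACACA and FASN, which carry out the synthesis itself, did not share this pattern. ACACA, the acetyl-CoA carboxylase, is listed on the minus strand of chromosome 17 from 37084992 to 37406836. It stood at 4.87 TPM on day 2 and 11.3 TPM on day 3 with the SNHG26 guides, and at 14.2 TPM and 11.6 TPM with the control guides. Thus 3 libraries lay close together and the SNHG26 day 2 library was the low one. The depth behind these values is poorly known: on the full span they are at most 215 to 569 reads, while on the shortest of the 23 annotated transcripts (775 bases) they would be 0.518 to 1.37 reads.  FASN, the fatty acid synthase (chromosome 17, minus strand, 82078338 to 82098294), stood at 3.39 and 2.71 TPM with the SNHG26 guides and at 4.44 and 6.34 TPM with the control guides, on days 2 and 3. The days overlapped, and the arms did not. At most 8.27 to 18.8 reads lay behind each FASN value. On the median span of its 13 annotated transcripts (1273 bases) they would be 0.527 to 1.20 reads.

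FADS1 and FADS2, the front-end desaturases of polyunsaturated fatty acids, are neighbours on chromosome 11. FADS1 (minus strand, 61799627 to 61829318) stood at 17.3 and 14.7 TPM with the SNHG26 guides and at 19.9 and 13.9 TPM with the control guides, on days 2 and 3. Its day 3 values were 0.846 and 0.698 of day 2, a smaller difference than for SCD, and the days did not overlap. At most 61.5 to 73.7 reads lay behind each FADS1 value, and 11.8 to 14.2 reads on the median transcript span. FADS2 (plus strand, 61792980 to 61867354) was low, at 1.77 and 0.423 TPM with the SNHG26 guides and at 2.51 and 0.398 TPM with the control guides. Day 3 was 0.239 and 0.159 of day 2, but on at most 18.0, 4.82, 23.2 and 4.41 reads. As listed, FADS1 lies wholly inside the span of FADS2 on the opposite strand (29692 bases), and whether counting used strand is not stated. Reads of these genes are therefore uncertain in both.

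The elongases differed in level and in depth. ELOVL5, which lengthens polyunsaturated fatty acids (chromosome 6, minus strand, 53267398 to 53349179), varied least of the 10 genes over the libraries. It stood at 9.03 and 7.80 TPM with the SNHG26 guides and at 9.55 and 8.43 TPM with the control guides, on days 2 and 3, or 0.865 and 0.883 of day 2 on day 3. At most 97.2 to 103 reads lay behind each value, and the shortest annotated transcript would still give 65.2 to 68.9 reads. ELOVL6, which lengthens palmitate (chromosome 4, minus strand, 110045846 to 110199199), stood at 1.34 and 0.385 TPM with the SNHG26 guides and at 1.00 and 0.668 TPM with the control guides. The days did not overlap, although at most 9.03 to 28.1 reads lay behind its values.

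**Figure D2:**
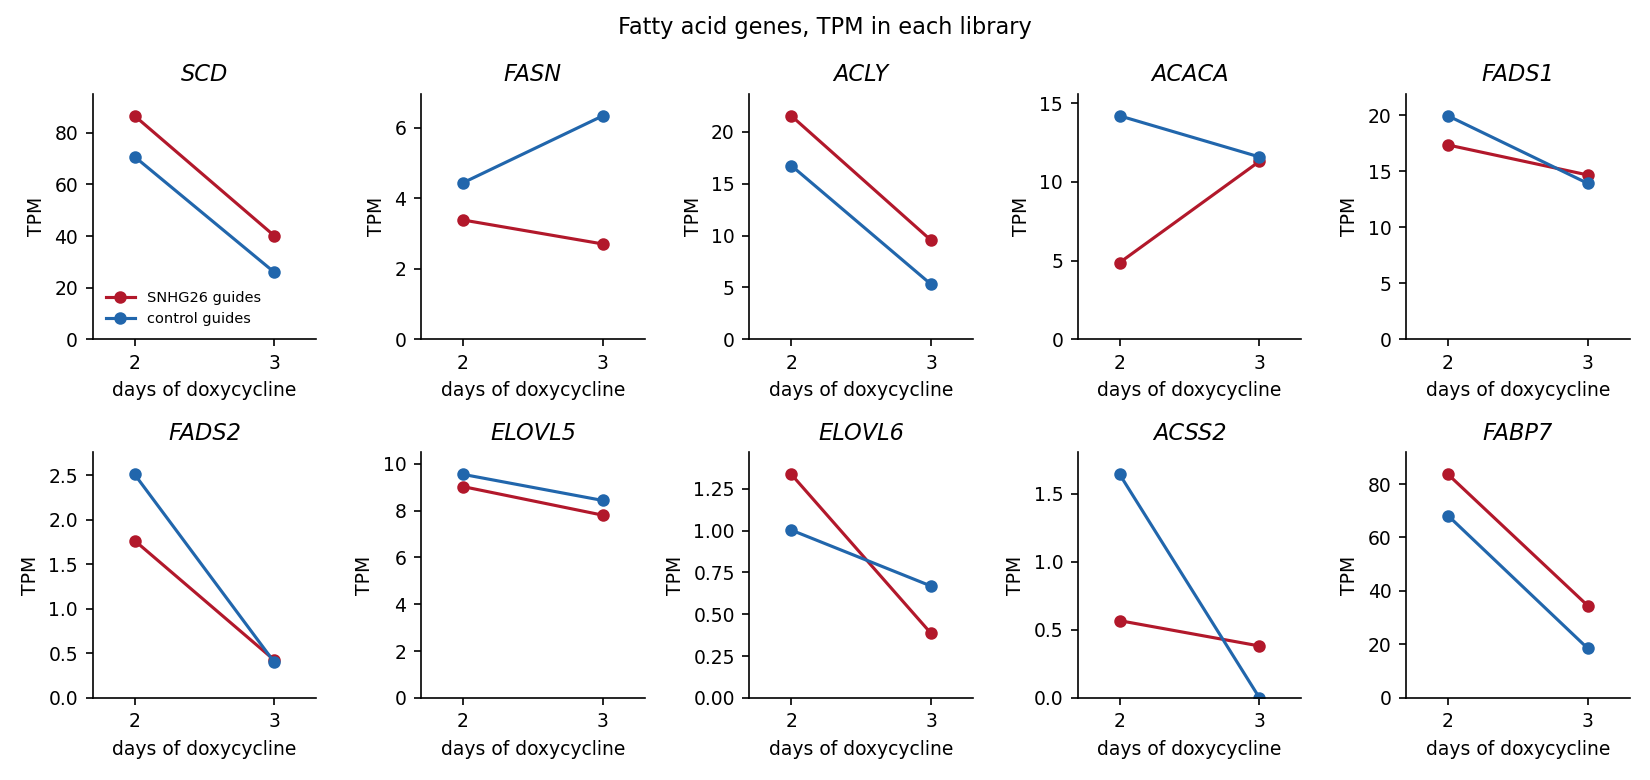
TPM of each of the 10 genes (vertical axes, each from 0 on its own scale) against days of doxycycline, with 1 point per library and a line joining the 2 libraries of a guide arm. The lines of SCD, ACLY and FABP7 run downward in parallel with the SNHG26 guides on top (SCD 86.6 to 40.1 TPM and 70.8 to 26.0 TPM), whereas those of FASN and ACACA run in opposite directions.

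The first comparison asked how the genes stood on day 3 against day 2 in each guide arm. Changes are differences of log2(TPM + 1), a scale on which the differences of low genes come out too small. For FABP7 they were -1.25 with the SNHG26 guides and -1.83 with the control guides, for ACLY -1.10 and -1.49, for SCD -1.09 and -1.41 and for FADS2 -0.96 and -1.33. The other 4 genes that were lower in both arms were ACSS2, ELOVL6, FADS1 and ELOVL5, with changes from -1.40 to -0.16. FASN had -0.24 and 0.43 and ACACA 1.07 and -0.27, so their signs differed between the arms. Both day 3 libraries lay below both day 2 libraries for 8 of the 10 genes, against 16.6% of the 13840 genes with any value; the names were chosen on these values, so nothing is read from that count. The same 8 genes were lower within each arm (21.9% of all genes were). Of them 4, SCD, ACLY, FADS2 and FABP7, had at most 0.5 times their day 2 TPM in each arm. Over all genes that share was 12.9%, which also takes in genes listed at 0 on both days of 1 arm. The median over the 10 genes was -0.65, and over all 13840 genes it was 0.00609. SCD and FABP7 also belong to the 2032 genes that averaged 20 TPM or more, of which 19% had non-overlapping lower day 3 libraries and 2.07% at most 0.5 times their day 2 TPM in each arm. Ranked there by the arm with the smaller difference, FABP7 was at place 19 from the lowest and SCD at place 29. These shares and places rest on the values on which the names were chosen, so nothing is read from them either.

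Of the 10 genes, ELOVL6 and ACSS2 were under the level needed for the test between the days. Limma's test over the 8274 genes averaging 1 TPM or more called 3 of all genes (0.0363%) at an adjusted p of 0.05, with 547 at an unadjusted p under 0.05, and 0 of the 8 fatty acid genes it tested. With a replicate block for the guide arm, or without any 1 of the 4 libraries, it called 0 genes. For a single gene, 2 libraries against 2 cannot give an exact two-sided permutation p below 0.333. A further test asked whether the change differed between the arms. With 1 library per arm and day it had no replicates, and its spread came from the differences between days and between guides. It therefore cannot decide whether the change of a gene differed. In it limma called 8 of 8274 genes (0.0967%) and none of the 8 fatty acid genes tested, FASN and ACACA included. That count was 0 without any 1 of the libraries.

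**Figure D3:**
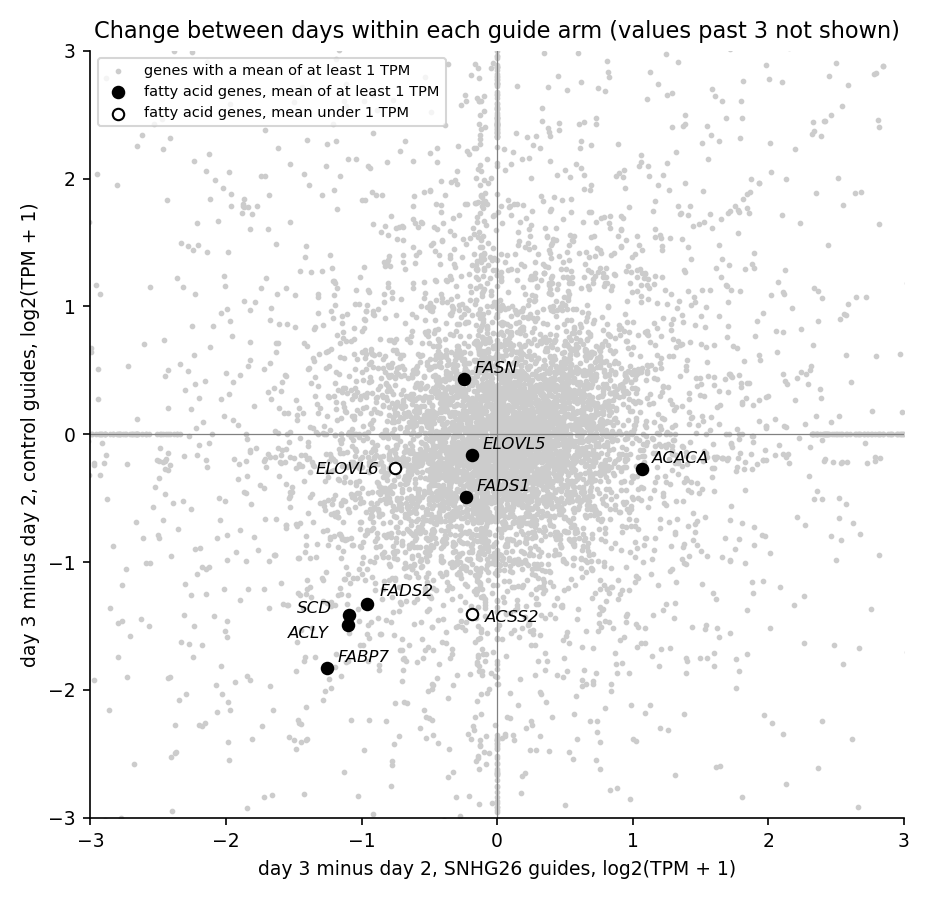
Change from day 2 to day 3 on log2(TPM + 1) with the SNHG26 guides (horizontal axis) and with the control guides (vertical axis), for the 10 genes (black, or open circles where the mean is under 1 TPM) and all genes averaging 1 TPM or more (grey). SCD, ACLY, FADS2 and FABP7 lie together at the lower left, between -1.25 and -0.96 across and between -1.83 and -1.33 down; ELOVL5 lies near the origin.

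The second comparison set the SNHG26 guides against the control guides on each day. SCD, ACLY and FABP7 were higher on both days in the arm with the SNHG26 guides, by 0.29, 0.35 and 0.29 on day 2 and by 0.61, 0.74 and 0.86 on day 3 on log2(TPM + 1). In TPM, the day 3 ratios were 1.54 for SCD, 1.80 for ACLY and 1.86 for FABP7. The counting interval of the ratio was 1.13 to 2.12 for SCD on day 3. It included 1 for SCD on day 2 (0.989 to 1.52) and for FABP7 on either day (0.786 to 1.93 and 0.890 to 4.11). These intervals cover counting error only, and the genes were named with these values known, so they are no test of the guides. These 3 genes had 1 order over the libraries, from the SNHG26 day 2 library down through the control day 2 and SNHG26 day 3 libraries to the control day 3 library. That order was found in 3.39% of the 13840 genes, low ones included. It was taken from these 3 genes in these same libraries, so nothing is read from that share. Higher values on both days in the SNHG26 arm were seen in 3 of the 10 genes, in 20.2% of the 13840 genes and in 35.8% of those averaging 20 TPM or more. The mean changes of 0.45, 0.54 and 0.58 for SCD, ACLY and FABP7 took the other sign when the SNHG26 day 2 library (-0.10, -0.00433 and -0.05) or the control day 3 library (-0.26, -0.20 and -0.34) was left out, which leaves the arms with unequal days.

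FASN and ACACA were lower with the SNHG26 guides on both days and did not overlap between the arms. FASN had -0.31 on day 2 and -0.99 on day 3, and ACACA -1.37 and -0.03. Such a lack of overlap, lower with the SNHG26 guides, was seen in 2 of the 10 genes and in 12.6% of the 13840 genes. With ELOVL5 (-0.07 and -0.10), 3 of the 10 genes were lower on both days, as were 20.2% of all genes. FADS1, FADS2, ELOVL6 and ACSS2 had opposite signs on the 2 days, with values from -0.75 to 0.47. The median over the 10 genes was -0.07. It turned to 0.19 without the SNHG26 day 3 library and to 0.34 without the control day 2 library, and was -0.32 without the control day 3 library.

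Limma called 0 of 8274 genes in the comparison of guides (0%), the 8 fatty acid genes tested included; 337 of all genes had an unadjusted p under 0.05. The SNHG26 day 3 library gave 18.5% of its listed TPM to genes of the mitochondrial genome, against 23.2% to 25.9% in the other libraries. After rescaling without these genes, the mean change with the guides was 0.36 for SCD, 0.48 for ACLY and 0.49 for FABP7.

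**Figure D4:**
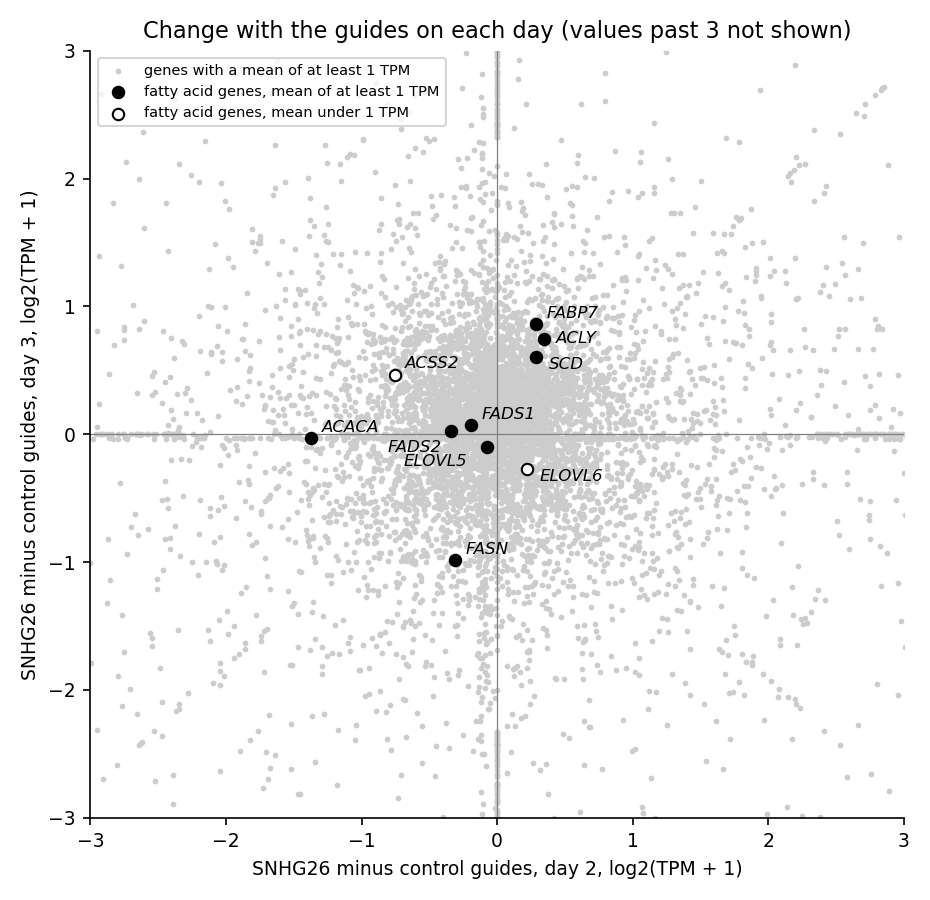
Change with the SNHG26 guides against the control guides on log2(TPM + 1), on day 2 (horizontal axis) and day 3 (vertical axis), for the 10 genes (black, or open circles where the mean is under 1 TPM) and all genes averaging 1 TPM or more (grey). FABP7, ACLY and SCD form a group above 0 on both days (0.29 to 0.35 across, 0.61 to 0.86 up), ACACA is low on day 2 only (-1.37) and FASN is lowest on day 3 (-0.99).

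Other genes of lipid metabolism were taken from 6 lists. Of their 76 tested genes, 0 were called by limma in either comparison, higher or lower; the lowest adjusted p was 0.241 between the days and 0.935 between the guides, and 19 and 1 genes had an unadjusted p under 0.05. Of 20 other genes of synthesis, elongation and desaturation with any value, 8 were lower on day 3 and 5 higher without overlap between the days, beside 16.6% and 14.9% of all genes. The highest by mean TPM, which sets long genes low, were SLC25A1 and TECR. SLC25A1, the mitochondrial citrate exporter upstream of ACLY, had 120.4 and 86.2 TPM under the SNHG26 guides on days 2 and 3. Under the control guides it had 121.0 and 68.9 TPM. TECR, the last enzyme of the elongation cycle, had 36.7 and 38.2 TPM and 27.9 and 38.9 TPM in the same order. Of 16 other binding and activation genes, 7 were lower and 3 higher on day 3 without overlap. DBI, the acyl-CoA binding protein, stood at 587.4 and 400.03 TPM with the SNHG26 guides and at 546.5 and 334.9 TPM with the control guides, and SLC27A5, a bile acid and fatty acid CoA ligase, at 272.7 and 200.9 TPM and at 247.03 and 156.7 TPM.

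In the next 3 lists, genes are again counted as lower or higher on day 3 where the days did not overlap, as in 16.6% and 14.9% of all genes. Of 20 regulators of lipid synthesis with any value, 4 were lower and 5 higher by this count, with a median change of -0.000771. The highest by mean TPM were MLX and PRKAG1. MLX, the partner of the glucose-sensing factor ChREBP, stood at 15.9 and 11.9 TPM with the SNHG26 guides and 15.0 and 7.99 TPM with the control guides. PRKAG1, an AMPK subunit, stood at 3.09 and 7.52 TPM and at 4.98 and 6.11 TPM. In fatty acid oxidation, the opposite process, 3 of 24 genes were lower and 1 higher without overlap, and the median change was -0.02. Its highest genes by mean TPM were ECHS1 and ETFB. ECHS1, an enoyl-CoA hydratase, had 125.4 and 163.4 TPM and 130.1 and 126.04 TPM. ETFB, an electron carrier subunit, had 13.4 and 17.3 TPM and 13.6 and 18.2 TPM. In glycerolipid synthesis and storage, 3 of 18 genes were lower and 5 higher without overlap, with a median of 0.09. PLIN2, a coat protein of lipid droplets, stood at 23.0 and 37.9 TPM and at 15.1 and 24.04 TPM, and AGPAT1, an acyltransferase of phosphatidic acid synthesis, at 17.2 and 29.9 TPM and at 16.7 and 17.3 TPM.

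The lowest median of the 6 lists was that of cholesterol synthesis and uptake, genes that SREBPs also control. Of its 23 genes, 19 were lower on day 3 without overlap and 0 higher, beside 16.6% and 14.9% of all genes, with a median of -0.84. FDPS, which makes farnesyl diphosphate, stood at 216.9 and 106.5 TPM with the SNHG26 guides and at 217.3 and 78.3 TPM with the control guides, and ACAT2, the thiolase at the start of the pathway, at 161.4 and 58.6 TPM and at 137.1 and 25.01 TPM. The library order of SCD, ACLY and FABP7 was shared by 12 of the 23 genes and by 3.39% of all genes, low ones included. The order was taken from these same libraries and the list was written with earlier results known. Nothing is therefore read from that count. A difference between this list and the 10 fatty acid genes was not tested.

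**Figure D5:**
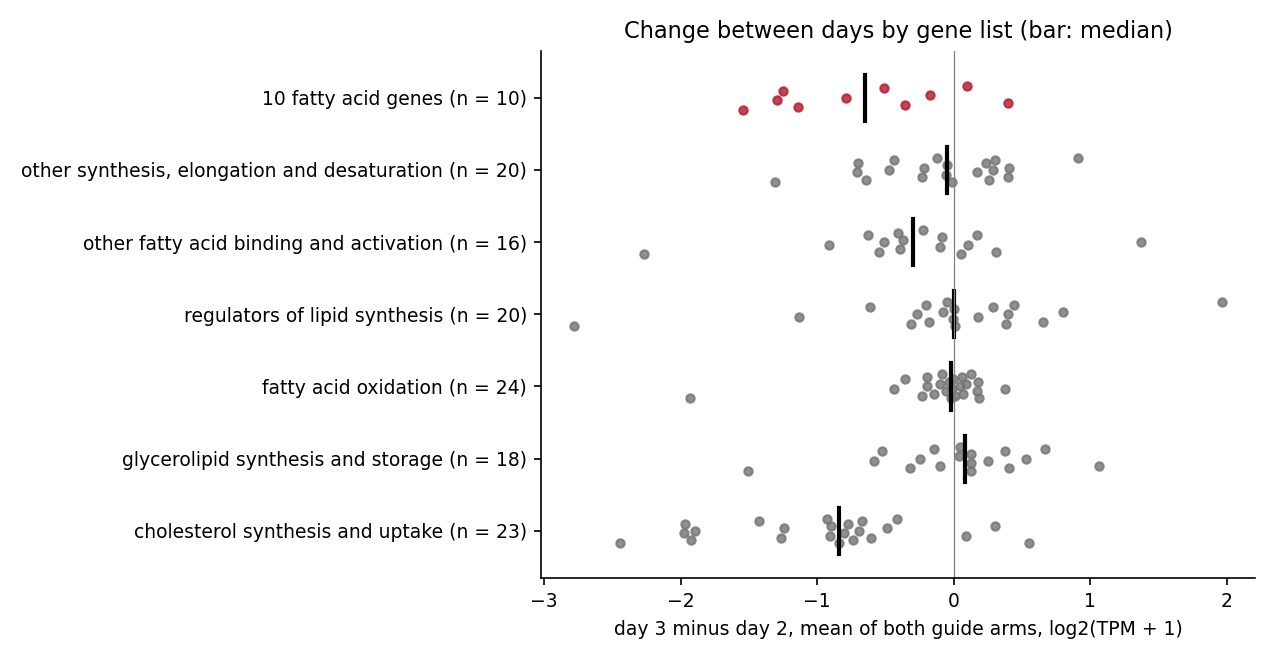
Change from day 2 to day 3 (mean of both guide arms, log2(TPM + 1)) of each gene with any value, for the 10 fatty acid genes (red) and the 6 other lists (grey), with the list median as a black bar. The 10 fatty acid genes (median -0.65) and the cholesterol list (median -0.84) lie left of 0, and the lists of oxidation, regulators and glycerolipid synthesis centre near it.

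The genes whose profile over the 4 libraries was most like the median profile of the 10 genes were looked for among the 1143 other genes that averaged 50 TPM or more. They were TTC9C, MGST1 and MRPS15, at Euclidean distances of 0.0805, 0.176 and 0.203 on centred log2(TPM + 1). TTC9C, the nearest, stood at 267.7 and 180.8 TPM with the SNHG26 guides and at 323.0 and 163.0 TPM with the control guides. With only 4 libraries such likeness is a description of these libraries.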

How the data were processed

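The deposited table holds gene-level TPM from the authors, with 1 column per nanopore cDNA library. Per the labels, libraries were made from 50 ng of RNA with oligo-dT priming and 14 cycles of PCR. The submitters' processing notes name minimap2 2.24-r1122 and GRCh38; the counting tool and annotation release are not given in the sources used here. The length unit was recovered from the 13 mitochondrially encoded mRNAs. With it, the listed span gave whole reads in all 4 libraries for 2853 of 13840 genes, within 0.0001 read. For the other genes reads are bounded by the full span or set on GENCODE release 29 transcripts.

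The 10 genes and all gene lists were chosen with earlier results of these data known. Genes averaging 1 TPM or more were tested on log2(TPM + 1) with limma 3.58.1 (R 4.3.3, trended eBayes), Benjamini-Hochberg adjustment over all of them and a threshold of 0.05, with only the compared factor in the model. The fit was tested on simulated data, with Poisson reads at the levels of these genes and known changes. Changed genes mostly came out in the right direction. With genes of few reads included, many changed genes were not called, and false calls were well above the threshold's rate. For better-covered genes alone, most changed genes were called and false calls were near that rate. The simulation held counting error only and covered the comparison of days only. The few genes called here, and the many not called, are read with these limits. Beside the 10 genes, named genes were those called and otherwise the 2 with the largest mean TPM of each list. Libraries of the same number share the day of doxycycline in the labels; their deviations from the arm means had a correlation of 0.0464 over 8274 genes, and a replicate block was an alternative. Other alternatives changed the pseudocount, filter, scaling and variance model or left out 1 library.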

Additional observations from a re-analysis of the deposited data

Results flagged for a closer look

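ELOVL6 and ACSS2, both with a mean under 1 TPM and so outside the test, had changes with the SNHG26 guides of opposite sign on the 2 days. ELOVL6 was higher on day 2 (0.22) and lower on day 3 (-0.27), and ACSS2 was lower on day 2 (-0.75) and higher on day 3 (0.47), all on log2(TPM + 1). Each value is from 1 library per arm, and the difference between the days was not tested at the level used for the other genes. When all genes with any value were included, limma called neither of them for this difference, nor any of 13840 genes. Of all genes, 500 had an unadjusted limma p under 0.05. With 1 library per arm and day, that test took its spread from the day and guide differences and cannot decide the question.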

How the results depend on the processing

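In the comparison of guides 0 genes were called under each alternative run, and of the fatty acid genes that each alternative tested (2 to 10 of the 10) none was called in any comparison. Between the days, the count of 3 held at a filter of 5 TPM and with median ratio scaling. It was 0 at pseudocounts of 0.1 and 5, unfiltered, at a filter of 50 TPM, after quantile normalization, after rescaling without mitochondrial genes, with untrended eBayes, with a replicate block for the guide arm, and with any 1 library left out (0 to 0). For the difference of the guide change between days, the count of 8 was 14 at a pseudocount of 0.1, 13 at a filter of 5 TPM, and 0 at a pseudocount of 5, unfiltered, at a filter of 50 TPM, rescaled, untrended, and with any 1 library left out (0 to 0); a block could not be fitted there. The cause was not tested. The replicate block changed no other call. The median day change of the 10 genes was -1.16 at a pseudocount of 0.1 and -0.26 at 5, and -0.78 to -0.52 with 1 library left out. Their median guide change ran from -0.32 to 0.34 with 1 library left out. The day change kept its sign in 8 of the 10 genes under all 14 alternatives; FASN (-0.40 to 0.59) and ACACA (-0.29 to 1.08) took both signs with 1 library left out. Depth limits FASN, FADS2, ELOVL6 and ACSS2, with at most 18.8, 23.2, 28.1 and 11.4 reads in any library.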

Other observations

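Genes named here were chosen after their values were seen. FABP3, the fatty acid carrier of heart and muscle, was lower on day 3 in both arms like FABP7, at 52.3 and 6.68 TPM with the SNHG26 guides and at 34.0 and 9.44 TPM with the control guides (log2 change -2.27, SE 0.34, limma adjusted p 0.257). At most 11.9 to 83.2 reads lay behind these values. FABP5, the carrier of skin and many other tissues, did not share the direction between the arms, with 27.5 and 32.3 TPM and 49.3 and 23.8 TPM; it has processed pseudogenes that can take its reads.

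INSIG1, which holds SREBPs back in the endoplasmic reticulum, had 2.94 and 0 TPM with the SNHG26 guides and 11.01 and 0 TPM with the control guides, on at most 17.1 reads. INSIG2 was higher on day 3 in both arms, at 1.98 and 8.29 TPM and at 1.07 and 9.16 TPM (limma adjusted p 0.340). SREBF1 was listed at 0 in both control libraries. With the SNHG26 guides it was at 0.829 and 0.262 TPM on days 2 and 3, on at most 3.03 and 1.07 reads. SREBF2 was at 0 and 0.0880 TPM with the SNHG26 guides and at 4.26 and 0 TPM with the control guides, on at most 39.3 reads. LPCAT3, which places polyunsaturated chains into phospholipids, had 9.43 and 3.55 TPM with the SNHG26 guides and 10.4 and 2.22 TPM with the control guides (limma adjusted p 0.449). CPT1C, a relative of the carnitine palmitoyltransferases, had 10.5 and 2.02 TPM and 7.54 and 1.23 TPM (limma adjusted p 0.372).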
